A study of Mus musculus with 5 samples.

Results

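ChIP-specific deep intron peaks are sites called in the Nr1d1 pull-down, and not in the IgG mock, that lie inside an intron and over 10 kb from the nearest start site of the authors' annotation. Members were chosen by the deposited annotation: class intron, and more than 10 kb between the peak and the nearest transcription start site (TSS). In all, 3153 of the 14469 annotated ChIP-specific peaks met this rule, and 3624 of the 17110 annotated IgG peaks met it when chosen in the same way. The series measured Nr1d1 in 3 ChIP libraries, with 1 IgG mock library and 1 input DNA library as its controls. All 5 came from Th1 cells, the interferon-producing class of helper T cells, of wild-type C57BL/6 mice aged 4 to 6 weeks. Naive CD4 T cells were stimulated with antibodies to CD3 and CD28, with IL-12, IFNγ and an antibody to IL-4 added to steer them to Th1, and were collected after 3 to 4 days. Chromatin was fixed for 30 minutes in 1% formaldehyde. The labels name the Nr1d1 antibody for all 5 libraries, mock and input included, so the groups follow the titles.

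Nr1d1, also called REV-ERBα, is a nuclear receptor and a repressor in the circadian clock. It binds an AGGTCA half-site behind an A/T-rich stretch (the RORE), or a pair of such half-sites (RevDR2), and recruits the NCoR-HDAC3 corepressor. Enhancers can lie deep in introns, and very long genes, many of which encode proteins of neurons and muscle, consist almost wholly of intron sequence.

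The peak lists held no value per library, so there was 1 list for the Nr1d1 ChIP and 1 for the mock, both called over the same input. The read depth was unknown, and no spread between libraries could be given. Intervals below are at 95% and cover the counting of peaks only (Wilson for shares, exact Poisson for peaks per Mb). All p-values compare these lists of peaks, not cells or mice, and peaks of 1 gene may not be independent. ChIP-specific peaks lie apart from IgG peaks by definition, whereas 982 of the 3624 IgG deep intron peaks overlapped a ChIP peak.

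Sequence could be read for the few deep intron peaks that reach into a RefSeq promoter window, which runs from 250 bases before to 50 after an annotated gene start. This held for 4 ChIP-specific and 4 IgG members, and the first 3 stretches here are ChIP-specific. These peaks could be read only because they touch such a window, so their DNA may differ from that of other members. They are also too few to describe the rest. All stretches are written on the plus strand (RefSeq, GRCm38.p6), with the AGGTCA half-site, read on either strand, in capitals.
Zfp423 intron, chr8:87927326-87927532: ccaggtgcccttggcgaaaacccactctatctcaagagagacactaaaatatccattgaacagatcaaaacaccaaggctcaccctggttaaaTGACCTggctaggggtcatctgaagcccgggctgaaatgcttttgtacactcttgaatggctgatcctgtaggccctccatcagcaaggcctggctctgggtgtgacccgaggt
Fgf13 intron, chrX:59179042-59179099: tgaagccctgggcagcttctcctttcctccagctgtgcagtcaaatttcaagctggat
Peak nearest to Gm2163, chr4:42483826-42483916: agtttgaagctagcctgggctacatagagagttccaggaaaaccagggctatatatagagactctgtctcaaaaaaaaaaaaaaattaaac
Gmnc intron, IgG list, chr16:26968196-26968449: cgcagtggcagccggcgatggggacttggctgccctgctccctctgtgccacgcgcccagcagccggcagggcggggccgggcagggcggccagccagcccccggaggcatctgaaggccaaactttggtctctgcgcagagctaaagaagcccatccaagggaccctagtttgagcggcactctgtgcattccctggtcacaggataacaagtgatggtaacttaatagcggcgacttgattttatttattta
Lhfpl3 window, IgG list, chr5:22745976-22746074: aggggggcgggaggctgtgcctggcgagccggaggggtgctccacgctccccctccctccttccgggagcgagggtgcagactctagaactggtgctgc

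The ChIP-specific peak in Zfp423, a zinc finger factor of fat and brain development, was 250 bp long with a false discovery rate (FDR) of 0.0141, and it lay 16602 bp from the TSS. Its stretch of 207 bases held 1 AGGTCA, on the minus strand, and the same positions held that motif in 11.4% of all 32851 promoter windows. No RORE or RevDR2 letters were found in any of the 8 stretches, and in the Zfp423 positions 0.283% of all windows hold a RORE. The ChIP-specific stretches had a GC content of 51.7% in Zfp423, 51.7% in Fgf13 and 36.3% beside Gm2163, and the fourth, in the kinase gene Fer, covered 22 bases. The IgG stretches had 60.2% in Gmnc, 71.7% in the Lhfpl3 window, 87.0% in Rap1gap2 over 23 bases and 51.7% in Rerg over 29 bases. The IgG peak of Gmnc thus reached a RefSeq start of its own gene. That of Rap1gap2 covered only the downstream end of its own gene's window and did not reach the start. The authors' annotation placed these 2 peaks 21662 and 67412 bp from the nearest TSS. The 4 ChIP-specific stretches lay in windows of other genes: Gm34412 for Zfp423, Gm36570 for Fgf13, Gm52694 beside Gm2163 and 1110058D11Rik for Fer. Those of Fgf13 and Fer covered only the upstream end of the window and did not reach the start.

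Deep introns took nearly the same part of both lists. Their share was 21.8% in the ChIP-specific list (interval 21.1 to 22.5) and 21.2% in the IgG list (interval 20.6 to 21.8). The gap of 0.611 percentage points (-0.298 to 1.52) did not pass the test (two-sided Fisher's exact test, p = 0.239 after Benjamini-Hochberg adjustment for 5 shares). The sign of this difference depended on the set compared. Against IgG peaks that overlapped no ChIP peak it was -0.244 points. Among intron peaks alone, the deep ones made up 70.8% in the ChIP-specific list and 73.0% in the IgG list.

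The 3153 ChIP-specific members were short and mostly of moderate confidence. Their length ran from 100 to 775 bp with a median of 175 bp, and together they covered 622 kb. Their median FDR was 0.0146, 37 of them (1.17%) had an FDR printed as 0, and 29.3% (27.7 to 30.9) had an FDR at or below 0.01. In the IgG list, 590 of 3624 deep intron peaks (16.3%) had an FDR printed as 0, and 51.9% (50.2 to 53.5) were at or below 0.01. The ChIP-specific share minus the IgG share was -22.6 points, with an interval of -24.9 to -20.3 (adjusted p = 1.78e-79, Fisher's exact test). It was smaller, at -13.0 points, against IgG peaks without a ChIP overlap, and at -11.3 points with all ChIP peaks in place of the ChIP-specific ones (Fisher's exact test, adjusted p = 2.21e-24 and 1.66e-22). The FDR was computed by the authors for each list on its own, with 477 distinct values among the ChIP-specific members and 92 among the IgG members, so the scales may not be equal.

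By their medians, sites found in both lists were stronger and longer than sites found in 1 list. Median FDR and length were 0.00515 and 300 bp for the 976 ChIP deep intron peaks over an IgG peak, and 0.0151 and 175 bp for the 2642 IgG ones without a ChIP overlap. Peaks of 300 bp or longer were 11.9% of ChIP-specific and 14.6% of IgG members, which differ by -2.68 points (-4.28 to -1.06; adjusted p = 0.00314 by Fisher's exact test). This direction depended on the shared sites and on the FDR limit. Against IgG peaks without a ChIP overlap, the ChIP-specific share was higher by 5.23 points (Fisher's exact test, adjusted p = 2.18e-11), and among peaks with an FDR at or below 0.01 it was higher by 6.46 points (Fisher's exact test, adjusted p = 0.00195).

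Most members lay within 100 kb of a TSS. The median distance was 41551 bp in the ChIP-specific list and 44808 bp in the IgG list. The band from 10 to 20 kb held 727 ChIP-specific members (23.1%), the band from 20 to 50 kb 1057 (33.5%), the band from 50 to 100 kb 711 (22.6%), and that from 100 to 200 kb 452 (14.3%). Beyond 200 kb there were 196 members up to 500 kb and 10 further out. Peaks over 100 kb from the TSS were 20.9% (19.5 to 22.3) of ChIP-specific and 22.3% of IgG members, which did not pass the test (-1.43 points, -3.38 to 0.54; adjusted p = 0.239 by Fisher's exact test).

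**Figure D1:**
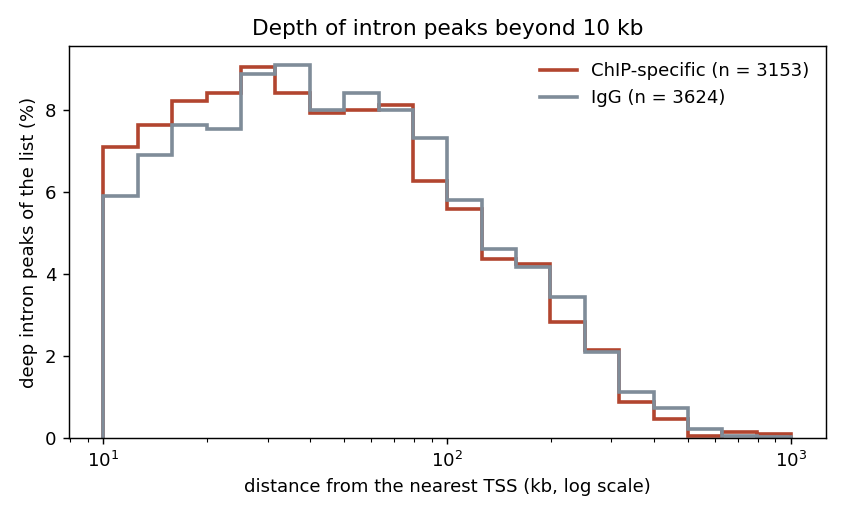
Share of the deep intron peaks of each list (%, vertical axis) in bands of distance from the nearest TSS (kb, log scale), for 3153 ChIP-specific and 3624 IgG peaks. Both lists hold the most peaks between 20 and 50 kb and thin out beyond 200 kb.

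At the edge of the rule, the members just inside the limit were an intron peak 10004 bp from the TSS of Kiz (FDR 0.0086) and one 10004 bp from that of Gm16057 (FDR 0.0135). Just outside were intron peaks 9995 bp from the TSS of Erc2 (FDR 0.0103) and 9985 bp from that of Gm13062 (FDR 0.0153). The furthest members lay in Dcc, the receptor for the axon guidance cue netrin. These were 3 peaks on chromosome 18, 838155, 831042 and 765667 bp from the Dcc TSS, with FDRs of 0.0102, 0.0102 and 0.0088. The others among the 5 furthest were in Ccser1 (801655 bp, FDR 0.0497) and in Lrrtm4, a synaptic adhesion gene, where the nearest TSS was that of Gm4409, at -757506 bp, the minus sign meaning upstream (FDR 0.00541).

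The strongest members, ordered by FDR and then by length, lay in genes of unrelated function. All 10 had an FDR printed as 0. The longest was 650 bp and lay in Rtl4, a gene derived from a retrotransposon (chromosome X, 144774101 to 144774749), with Gm26024 as its nearest TSS. The next was 475 bp long in Camk1d, a calcium/calmodulin-dependent kinase (chromosome 2, 5379101 to 5379574), 95687 bp from the TSS of Gm13197. The third was 400 bp long in Dnah7c, an axonemal dynein heavy chain (chromosome 1, 46682951 to 46683349). The other 7 were all 375 bp long and lay in Cyfip2, a subunit of the WAVE actin regulator (chromosome 11, 46300726 to 46301099, 11308 bp from the TSS), in the collagen gene Col5a2, in the kinase gene Rock1, in Zfp462, Vrk3 and Hhla1, and in the noncoding gene 4930554H23Rik.

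The strongest IgG deep intron peaks were ordered in the same way. They are thus the longest of 590 with an FDR printed as 0, and the ChIP-specific ones above the longest of 37. The first 5 IgG peaks measured 1300 bp in Qpct, 650 bp in AW554918, 625 bp in Dgkk, 550 bp in Adcy1 and 525 bp in Arhgap21. Of these 5, only that in Dgkk overlapped no ChIP peak, whereas the ChIP-specific list leaves out shared sites. With shared sites kept, the longest ChIP deep intron peak was 1450 bp.

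The gene around a deep intron peak was often not the gene named by the nearest TSS. By RefSeq coordinates (GRCm38.p6), 2823 of the 3153 members (89.5%) lay in the body of a protein-coding gene, 165 in another RefSeq gene and 165 in none. The nearest TSS belonged to the protein-coding gene around the peak for 1484 of the 2823 (52.6%), against 1647 of 3261 IgG peaks (50.5%). Predicted genes with a Gm number were nearest to 28.3% of ChIP-specific and 30.7% of IgG members. Genes were therefore counted by the gene body around the peak, called the host gene here.

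Members sat in 1261 host genes, 5.76% of the 21887 protein-coding genes, and IgG deep intron peaks in 1219 host genes, 5.57%. At an FDR at or below 0.01 the numbers of host genes were 608 and 877. Of the 2429 protein-coding genes over 100 kb, 37.6% held a ChIP-specific and 37.1% an IgG deep intron peak. Most host genes had 1 ChIP-specific peak (743 of 1261, 58.9%), 218 had 2, and 34 had 10 or more. Those 34 genes held 432 peaks, 15.3% of all ChIP-specific peaks with a host. In the IgG list, 61 genes had 10 or more and held 882 peaks, 27.0%.

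Long genes had more members per Mb of gene, not only more in total. The ChIP-specific density was 0.809 peaks per Mb (0.677 to 0.960) in genes of 20 to 50 kb, 1.38 in genes of 50 to 100 kb and 2.20 in genes of 100 to 200 kb. It was 3.95 in genes of 200 to 500 kb, 5.17 (4.76 to 5.61) in genes of 500 to 1000 kb and 6.31 (5.77 to 6.89) in the 59 genes over 1000 kb, all of which held at least 1 member. The 10 kb rule leaves less eligible sequence in short genes. With 10 kb taken off each gene the densities ran from 1.18 per Mb in the class of 20 to 50 kb to 6.36 per Mb in the longest. This allows only for the start of the gene itself. The rule also leaves out 10 kb on both sides of every other annotated TSS. How much of the gradient the rule itself sets was not tested.

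The mock had the same gradient, and a steeper one. IgG densities were 0.760 per Mb in genes of 20 to 50 kb, 2.25 in genes of 100 to 200 kb, 6.92 (6.45 to 7.43) in genes of 500 to 1000 kb and 7.91 (7.30 to 8.55) in those over 1000 kb. Genes over 500 kb held 38.5% (36.8 to 40.4) of hosted ChIP-specific members and 43.4% (41.7 to 45.1) of hosted IgG members. The share was 45.6% (43.6 to 47.6) for IgG peaks without a ChIP overlap and 37.5% (34.3 to 40.7) for ChIP peaks over an IgG peak. The length limit of this last comparison was chosen after the values had been seen, and no test was made of it.

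**Figure D2:**
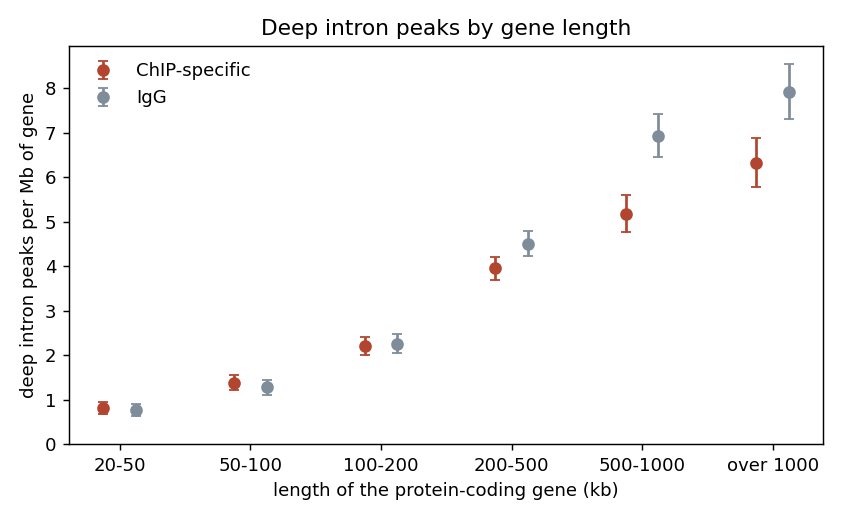
Deep intron peaks per Mb of protein-coding gene (vertical axis) by class of gene length in kb, with exact Poisson 95% intervals as bars, for ChIP-specific and IgG peaks. The lists lie together up to 200 kb, and the ChIP-specific points are lower above it, at 6.31 against 7.91 per Mb in the longest genes.

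Positions within host genes cannot show whether peaks prefer an end, since the rule leaves out peaks within 10 kb of a TSS. For the 2112 members whose host gene has its strand in the promoter table, the median position was 52.1% of the way from start to end, against 52.2% for 2408 IgG peaks. In host genes over 100 kb, cut into 5 equal parts from start to end, the first part held 19.8% of ChIP-specific members, the fourth 21.4% and the last 18.4% (16.7 to 20.2). The middle of one member was a median of 66.0 kb from the next member, and 456 members (14.5%) had another within 10 kb. For IgG deep intron peaks the median was 42.1 kb, and 649 (17.9%) had another within 10 kb.

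The 10 genes with the most members held 13 to 25 ChIP-specific peaks each and were 433 to 2390.4 kb long. Dmd, which encodes dystrophin, the link between actin and the muscle cell membrane, came first with 25 ChIP-specific peaks and 25 IgG peaks in 2390.4 kb of chromosome X. Both lists thus had 10.5 peaks per Mb there (6.77 to 15.4). Csmd1, a transmembrane protein with complement control domains, had 22 ChIP-specific and 24 IgG peaks (chromosome 8, 15892538 to 17535385). Lsamp, a membrane-anchored adhesion protein of the IgLON family, had 19 and 26. The related IgLON gene Opcml had 15 and 18.

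Others of the first 10 had 13 to 17 members. Cdh13, a cadherin tethered to the membrane by a lipid anchor, had 17 ChIP-specific and 20 IgG peaks. Tenm2, a teneurin that bridges synapses, had 16 and 17, and Ctnna3, an α-catenin that joins cadherins to actin, had 15 and 16. Auts2, a nuclear regulator of neuronal genes, had 16 and 15, and Tmem132d, a neural transmembrane protein, had 13 and 22. Of these 9 genes, Auts2 alone had more ChIP-specific than IgG peaks, but the IgG counts include sites shared with the ChIP and the ChIP-specific counts do not. With shared sites kept, the ChIP counts were 28 in Dmd, 25 in Csmd1, 29 in Lsamp, 24 in Auts2, 21 in Tenm2 and 19 in Ctnna3, all above the IgG counts. They were 18 in Opcml, equal to the IgG count, and 19 in Cdh13 and 16 in Tmem132d, below it. The order of the genes also depended on the FDR limit. At an FDR at or below 0.01 Ctnna3 had 7 ChIP-specific peaks, Tenm2 and Galnt17 had 5 each, Csmd1 and Auts2 had 4 each, Dmd, Lsamp, Cdh13 and Opcml had 3 each, and Tmem132d had 2.

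Galnt17, a glycosyltransferase that the authors' annotation calls Wbscr17, was the member of the first 10 with the widest gap in favour of the ChIP. It had 16 ChIP-specific and 6 IgG peaks in 433 kb of chromosome 5 (130874343 to 131307522). These were densities of 36.9 per Mb (21.1 to 60.0) and 13.9 per Mb (5.08 to 30.1). The ChIP-specific peaks were spread over 400 kb of the gene, 100 to 350 bp long, and 2 had an FDR printed as 0 (131030101 to 131030449 and 131294201 to 131294499). Of the 6 IgG peaks, 3 overlapped a ChIP peak, and with shared sites kept the ChIP count was 19. The gap did not hold at an FDR at or below 0.01, where 5 ChIP-specific peaks and all 6 IgG peaks were left.

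**Figure D3:**
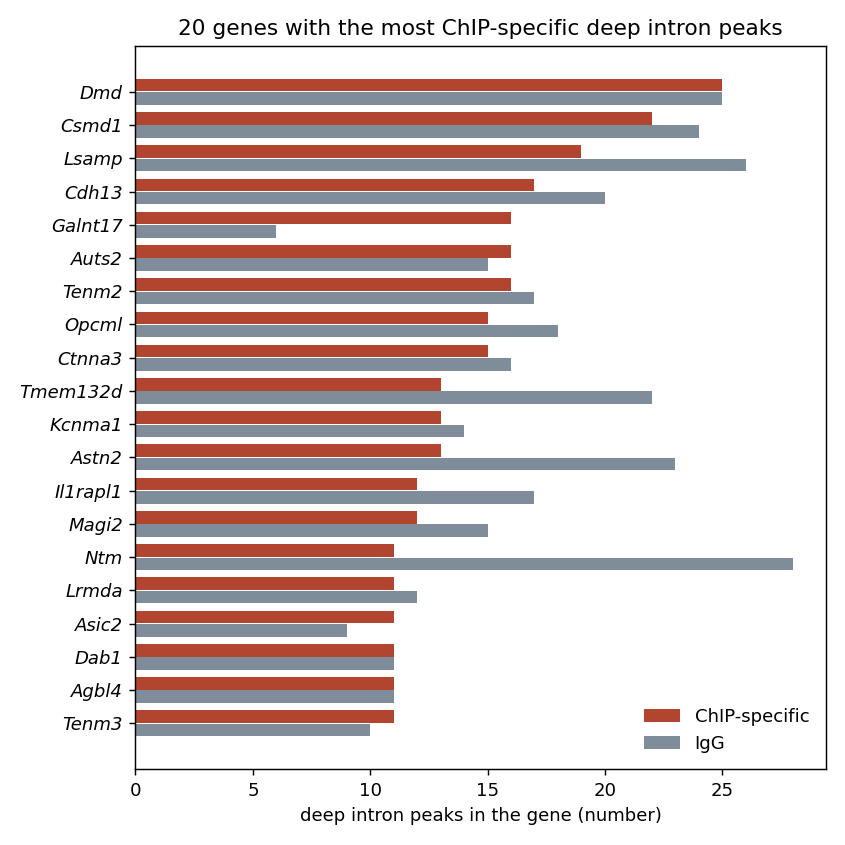
Number of deep intron peaks (horizontal axis) in the 20 protein-coding genes with the most ChIP-specific ones, with the IgG number under each. Dmd leads with 25 and 25 peaks, Galnt17 has 16 against 6, and Ntm has 11 against 28.

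Peaks of the lists were interspersed along these genes. In Dmd the ChIP-specific peaks ran from 204 to 2131 kb from the lower end of the gene and the IgG peaks from 144 to 2287 kb. In Csmd1 they ran from 19.7 to 1560 kb and from 116 to 1629 kb. In Lsamp the ranges were 41.8 to 2046 kb for the ChIP and 27.9 to 2000.1 kb for the mock. The FDR of the members in Dmd ran from 0.0088 to 0.0496, and their length from 100 to 400 bp.

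**Figure D4:**
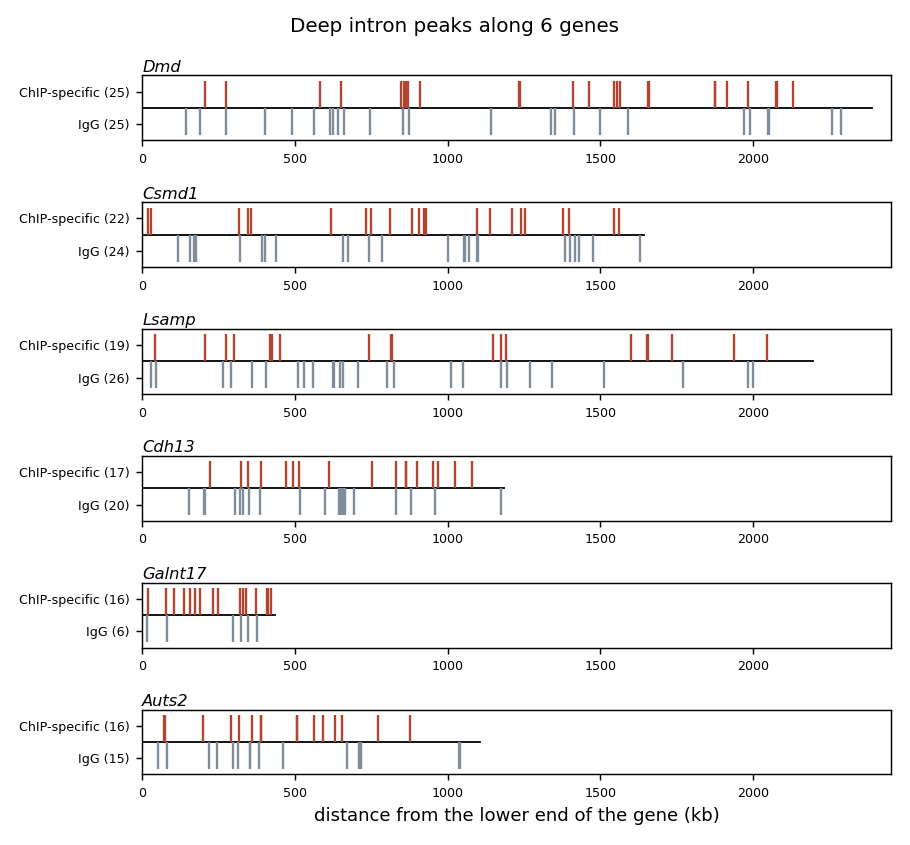
Positions of deep intron peaks along the 6 genes with the most ChIP-specific ones (horizontal axis, kb from the lower end of the gene), ChIP-specific peaks as ticks above the gene line and IgG peaks below it. Ticks of both lists run along most of each gene, and Galnt17 has 16 ticks above and 6 below the line.

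Ranked by density, shorter genes came first, and several had few IgG peaks. Of the 137 genes with 5 or more members, whose median density was 9.97 per Mb, Gpc4 was the densest. This glypican, a heparan sulfate proteoglycan that presents growth factors at the cell surface, had 8 members in its 114 kb, all between 52091226 and 52152499 on chromosome X, a density of 70.2 per Mb (30.3 to 138). Their lengths were 125, 200, 325, 300, 150, 275, 100 and 250 bp, and the lowest FDR was 0.00597 (52122826 to 52123149). The single IgG peak was 125 bp long with an FDR of 0.0357.

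The glutamate receptor gene Grm3 had 6 members and 1 IgG peak in 240.1 kb, with a ChIP-specific interval of 9.17 to 54.4 per Mb and an IgG interval of 0.105 to 23.2 per Mb. Me3, a mitochondrial malic enzyme, had 5 and 0, with ChIP-specific FDRs of 0.0246, 0.0277, 0.0122, 0.0168 and 0.00617 from the first to the last position. Gria3, an AMPA receptor subunit, had 6 and 2. Others among the 10 densest had IgG numbers as high as their own: Nhs with 8 and 9, Gria1 with 7 and 9, and Shroom4 with 5 and 7. Genes in this ranking were picked after their values were seen, and the intervals do not allow for that choice.

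The gene groups that follow differ in gene length, so their shares are to be read beside those of all genes of like length. A ChIP-specific peak was held by 2.38% of all genes of 20 to 50 kb and 8.59% of those of 50 to 100 kb. The share was 21.7% at 100 to 200 kb, 53.3% at 200 to 500 kb and 81.0% at 500 to 1000 kb, with the densities given above. The median length given for a group does not show how lengths vary within it. Glutamate and GABA-A receptors are the main receptors of fast excitation and inhibition in the brain. Among 34 of their genes (median length 239 kb), 20 (58.8%) held a ChIP-specific and 26 (76.5%) an IgG deep intron peak. Grin2b, an NMDA receptor subunit, had 3 ChIP-specific peaks and 1 IgG peak, and the strongest was 325 bp long with an FDR printed as 0 (chromosome 6, 135920451 to 135920774). Grm7, a metabotropic receptor, had 6 and 11, with a 275 bp peak of FDR 0 close to the end of the gene (111564326 to 111564599). Grik2, a kainate receptor subunit, had 3 and 4. The group's density was 6.68 per Mb (5.29 to 8.33) in the ChIP-specific list and 9.22 per Mb in the IgG list.

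Of 37 genes of synaptic adhesion, 30 held ChIP-specific peaks and 30 held IgG peaks, with 207 and 300 peaks, or 6.09 (5.29 to 6.98) and 8.83 per Mb. Their median length was 911 kb, and the 81.1% with a ChIP-specific peak was nearly the 81.0% of all genes of 500 to 1000 kb. Lrp1b, a giant receptor of the LDL receptor family, had 4 ChIP-specific peaks, the strongest with an FDR printed as 0 (chromosome 2, 41258576 to 41258874), against 7 IgG peaks. Csmd2 had 6 and 16, Cntn6, a contactin, 2 and 1, and Cntnap2, a neurexin relative, 11 and 9. Of 31 cadherin, protocadherin and catenin genes (median length 197 kb), 21 (67.7%) held ChIP-specific peaks and 18 (58.1%) held IgG peaks. The densities of this group were 7.33 (5.96 to 8.93) and 9.41 per Mb. Cdh18 had 8 and 11 peaks and Ctnna2 had 9 and 20, each with a lowest ChIP-specific FDR of 0.00297, and Cdh7 had 1 and 0.

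Of 32 genes of voltage-gated channels (median length 343 kb), 22 (68.8%) held ChIP-specific peaks and 20 (62.5%) held IgG peaks, with 67 and 73 peaks. Kcnma1, the large-conductance potassium channel opened by calcium and voltage, had 13 and 14, and Cacna2d3, a calcium channel subunit, had 10 and 10. In each of these 2 genes the strongest member was 350 bp long with an FDR printed as 0. Kcnh8 had 3 and 0, and the strongest of the 3 lay 105778 bp from the TSS with an FDR of 0.00452. Of 33 axon guidance genes (median length 321 kb), 23 (69.7%) held ChIP-specific peaks and 21 (63.6%) held IgG peaks. Among these Unc5c, a netrin receptor, had 2 ChIP-specific peaks and 1 IgG peak, Dcc had 10 and 6, the guidance receptor Robo1 had 4 and 2, and Sema5a, a semaphorin, had 6 and 12.

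The dystrophin complex and its partners (median length 213 kb) had 10 of 19 genes (52.6%) with ChIP-specific peaks and 9 (47.4%) with IgG peaks. Of the 53 ChIP-specific peaks, 25 were those of Dmd. Sntg1, a syntrophin, had 7 and 3, with the strongest at an FDR of 0.000558 (chromosome 1, 8828301 to 8828649), and Sgcd, a sarcoglycan, had 3 and 12. Utrn, the dystrophin relative utrophin, and Dtnb, a dystrobrevin, had 1 and 0 each. Among 20 very long genes, with fragile-site genes such as Wwox among them, 19 held ChIP-specific peaks and 17 held IgG peaks, at 4.67 (3.81 to 5.66) and 5.62 per Mb. Wwox, an oxidoreductase gene at a common fragile site, had 2 and 1, and Ptprd, a receptor tyrosine phosphatase, had 11 and 25. Cyclic nucleotide phosphodiesterase genes, with a median length of 126 kb, held ChIP-specific peaks in 4 of 20 genes and IgG peaks in 5, at 1.71 (0.784 to 3.25) and 2.29 per Mb. Pde1c had 4 and 4 peaks, Pde10a 3 and 0 and Pde3a 1 and 5. Pde4d had 1 ChIP-specific and 1 IgG peak in 1302 kb.

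In the T cell groups, the share of genes with a ChIP-specific peak ran from 0% to 13.3%, beside 5.76% of all protein-coding genes of any length. Of 30 lymphocyte transcription factor genes, 4 (13.3%) held ChIP-specific peaks and 2 held IgG peaks, with a median gene length of 121 kb. Of the 18 in this group over 100 kb, 2 held a ChIP-specific peak and 1 an IgG peak, beside 37.6% and 37.1% of all genes over 100 kb. The group's density was 0.937 per Mb (0.304 to 2.19) in both lists. Arid5b, a chromatin-associated DNA-binding factor, had 1 ChIP-specific peak of 325 bp (chromosome 10, 68225051 to 68225374, FDR 0.0088). Mef2c had 1 (chromosome 13, 83537226 to 83537399, FDR 0.00928), and Ikzf1, the Ikaros factor of lymphocyte development, had 1 (chromosome 11, 11764726 to 11764899, FDR 0.0263) that the annotation assigned to Fignl1. Bcl11a had 2 ChIP-specific and 2 IgG peaks.

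In T cell receptor signalling and costimulation, 3 of 34 genes held a ChIP-specific deep intron peak and 0 an IgG one. Nfatc3, a calcium-regulated transcription factor, had 1 of 225 bp (chromosome 8, 106112126 to 106112349, FDR 0.00956), which the annotation assigned to Esrp2. Cblb, a ubiquitin ligase that restrains T cell activation, had 1 of 175 bp, 11238 bp from its TSS (FDR 0.0133). The density was 1.92 per Mb (0.524 to 4.92), against 0 peaks in 2.08 Mb of these genes in the IgG list. A count of 4 against 0 peaks is small. The share of genes was 8.82% (3.05 to 23.0) at a median length of 46.7 kb, beside 2.38% of all genes of 20 to 50 kb. Of the 7 in this group over 100 kb, 2 held a ChIP-specific peak, beside 37.6% of all genes over 100 kb.

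Of 24 Th1 identity genes, 1 held a ChIP-specific deep intron peak and 0 an IgG one. The gene was Havcr2, an inhibitory receptor of exhausted T cells, and its peak lay 10168 bp from the TSS, close to the limit of the class. None of 24 genes of Th2, Th17 and regulatory T cells held one of either kind. These genes are short, with medians of 11.8 and 18.1 kb, and together offered 0.590 and 0.717 Mb. For the second group, the interval for a count of 0 peaks reached up to 5.14 per Mb, so the count leaves densities up to that value possible.

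In the clock and corepressor groups, Rorb stood for all ChIP-specific deep intron peaks of the 26 clock, REV-ERB and ROR genes. This orphan receptor of retina and brain, which binds the same response elements as Nr1d1, had 4 ChIP-specific peaks of 125, 250, 100 and 350 bp (FDR 0.0419, 0.00928, 0.0133 and 0.0088) and 3 IgG peaks of 250, 225 and 275 bp. Rora, the related receptor that activates clock genes in many tissues, had 0 ChIP-specific and 8 IgG deep intron peaks in 735 kb, and 5 of the 8 overlapped a ChIP peak. Arntl and Cry1 had 1 IgG peak each and no ChIP-specific one. In all, ChIP-specific peaks were in 1 of these 26 genes (3.85%) and IgG peaks in 4 (15.4%), at a median length of 32.0 kb. Of all genes of 20 to 50 kb, 2.38% held a ChIP-specific and 2.24% an IgG deep intron peak. The 4 genes of this group over 100 kb included 1 with a ChIP-specific peak and 3 with an IgG one. Of all genes over 100 kb, 37.6% and 37.1% held such peaks.

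Of 13 genes of the NCoR-HDAC3 corepressor and its histone deacetylases (median length 56.4 kb), 1 (7.69%) held a ChIP-specific peak and 0 held IgG peaks. It was Hdac4, a class II deacetylase that works through NCoR and HDAC3, with a 300 bp peak 143 kb into the gene (chromosome 1, 92052651 to 92052949, FDR 0.00872). Hdac4 was 1 of 6 genes in this group over 100 kb, beside the 37.6% of all such genes with a ChIP-specific peak. Of 24 lipid and gluconeogenic genes known as REV-ERB targets from liver (median length 27.3 kb), 1 (4.17%) held a ChIP-specific peak and 1 held an IgG one. The ChIP-specific one was in Lipc, hepatic lipase (chromosome 9, 70834401 to 70834649, FDR 0.0088), and the IgG one in Ppargc1a.

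**Figure D5:**
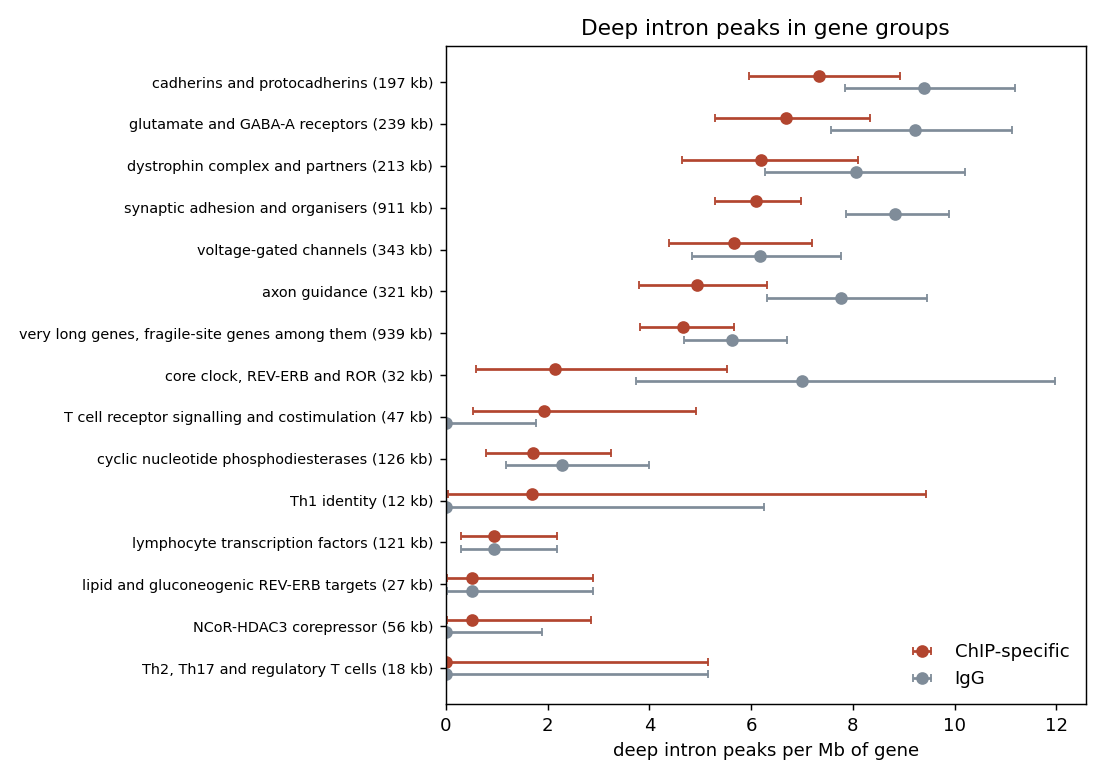
Deep intron peaks per Mb of gene (horizontal axis) in 15 gene groups, ChIP-specific above IgG in each, with exact Poisson 95% intervals as bars and the median gene length in brackets. The axon guidance, channel, synaptic, dystrophin, receptor and cadherin groups lie between 4.94 and 7.33 per Mb in the ChIP-specific list, and lymphocyte transcription factors at 0.937 in both.

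Chromosome X held 264 members (8.37%, 7.46 to 9.39) and 310 IgG deep intron peaks (8.55%, 7.69 to 9.51), and the gap of -0.181 points did not pass the test (adjusted p = 0.793 by Fisher's exact test). Per Mb of protein-coding genes of 20 kb or longer, X had 5.25 ChIP-specific peaks (4.58 to 5.99) and the autosomes 2.82 (2.71 to 2.93). IgG peaks had 6.32 and 3.25. Among autosomes, the ChIP-specific density was highest on chromosome 8, at 3.95 per Mb, and lowest on chromosome 2, at 1.70 per Mb.

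Against other ChIP-specific peaks, deep intron peaks differed in 1 of 6 shares. They were on chromosome X less often than intergenic peaks, at 8.37% against 11.4% (-3.01 points, -4.16 to -1.79; p = 1.27e-05 by Fisher's exact test after Benjamini-Hochberg adjustment for 6 shares). The parts of intron and of intergenic sequence that lie on X were not measured, so this gap does not compare densities. An FDR at or below 0.01 was reached by 29.3% of deep intron peaks, against 32.9% of the 1299 intron peaks nearer to a TSS and 28.0% of the 8279 intergenic peaks (Fisher's exact test, adjusted p = 0.0539 and 0.356). The first of these differences was -3.60 points (-6.63 to -0.622), and it was larger, at -6.04 points, with a limit of 20 kb (Fisher's exact test, adjusted p = 3.99e-05). With 1 peak per nearest gene, the one of lowest FDR, its direction turned to 6.06 points (Fisher's exact test, adjusted p = 0.00252). That choice itself raises the share of low FDRs in a class with more peaks per gene, so this value does not compare the sites alike. Within the members, 34.9% of those 10 to 20 kb from the TSS had an FDR at or below 0.01, 28.0% of those at 20 to 50 kb, 28.1% at 50 to 100 kb, 29.0% at 100 to 200 kb and 19.4% at 200 to 500 kb, as did 4 of the 10 further out. In the IgG list the share was 55.5% at 10 to 20 kb and 46.6% at 200 to 500 kb.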

How the data were processed

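Per the submitters' processing notes, reads were aligned to mm10 with BWA and peaks annotated with HOMER. Neither the peak caller, nor any version, nor how the authors merged their 3 ChIP libraries is stated in the labels or headers. The authors deposited for each peak a length in bp and a q-value, given per the file headers as an FDR and printed to 6 decimals. All values were under 0.05. The score column of the annotation equalled the length and was not used. Peaks were joined to their annotation by position, 2 ChIP-specific peaks and 1 IgG peak without annotation were left out, and overlap meant 1 bp or more.

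Host genes are the longest protein-coding RefSeq gene (GRCm38.p6, 21887 genes) over a peak's middle. Shares were compared with Fisher's exact test (two-sided), and p-values were adjusted by Benjamini and Hochberg's method (Python 3.11.15, scipy 1.17.1, numpy 2.4.6, pandas 2.3.3). The test was checked on simulated counts of independent peaks, so the check does not cover peaks that cluster within genes. The members, gene groups, tests and alternatives were chosen with earlier results of these data known. The 6 shares within the ChIP-specific list and the ranking by density were added after values had been seen. Genes were named by rule: the 10 with the most members, the 10 strongest and 5 furthest members, the 5 strongest IgG peaks, and up to 4 per gene group by lowest FDR. Some genes that this rule names are not reported here. Other genes, among them those set beside IgG counts, were picked after their values were seen. Sequences were printed for members that reach a promoter window, in place of those planned from the named genes. Intron numbers are not part of the annotation, and genome-wide motif shares need a genome, which was not used here.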

Additional observations from a re-analysis of the deposited data

How the results depend on the processing

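Of 90 recomputed values for the shares and gene counts, 70 kept their direction and their side of the threshold, or stayed within 1.5 times for counts. The difference in the share of deep intron peaks, in percentage points, turned to -0.244 against IgG peaks without a ChIP overlap, -0.0971 with all ChIP peaks and -0.0712 with a limit of 20 kb. That in peaks of 300 bp or longer turned to 5.23 against IgG peaks without a ChIP overlap, 7.66 with all ChIP peaks and 6.46 at an FDR at or below 0.01. The chromosome X difference turned to 0.859 with a limit of 20 kb, and that in peaks over 100 kb from the TSS to 0.657 with 1 peak per gene. The latter setting kept the peak of lowest FDR, then of greatest length, for each gene named by the nearest TSS. It thus favours low FDRs where a gene has several peaks. Against nearer intron peaks, the difference in FDR passed the test with all ChIP peaks (-5.44) and with a limit of 20 kb (-6.04), and turned to 6.06 with 1 peak per gene, the strongest. That in length passed with all ChIP peaks (-3.99) and turned to 0.205 at an FDR at or below 0.01 and to 2.54 with 1 peak per gene. Against intergenic peaks, FDR turned to -0.422 with a limit of 20 kb, and length to -0.0106 with that limit and to -0.311 with 1 peak per gene. Host genes numbered 608 ChIP-specific and 877 IgG at an FDR at or below 0.01, and counting the nearest gene gave 1911 ChIP-specific and 1923 IgG genes. The cause of these changes was not tested.

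No paired analysis was possible because the deposited lists hold 1 set of peaks per antibody, with no list per library, and for the same reason leaving out a library was not run. The alternatives for intron 1, AGGTCA, RORE and RevDR2 shares were not run, since intron numbers and a genome were not used here. Read depth was unknown for both lists, and its part in the results was not tested.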

Other observations

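Some very long genes held no ChIP-specific deep intron peak. Of 227 protein-coding genes over 500 kb, 32 held none, and 36 held no IgG one. Hdac9, a class II histone deacetylase, had 0 ChIP-specific and 0 IgG peaks in 869.5 kb, and Inpp4b, a phosphoinositide phosphatase, had 0 and 0 in 792 kb. A count of 0 in Hdac9 allowed up to 4.24 peaks per Mb. Adgrb3, an adhesion receptor of the brain, had 0 ChIP-specific and 10 IgG peaks, and 2 ChIP deep intron peaks in it overlapped an IgG peak. These genes were picked after their values were seen.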
